A study of Homo sapiens with 24 samples.

Results

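Expression of 10 genes used as prostate imaging targets, antibody or vaccine targets and diagnostic markers was followed by RNA sequencing in LNCaP cells, an established hormone-sensitive prostate cancer line. The 10 genes were FOLH1, STEAP1, STEAP2, STEAP4, TMEFF2, TRPM8, TRPV6, SLC45A3, ACPP and AMACR. They are defined by gene symbol as a list of clinical targets, and all 10 were found among the 23207 gene symbols of each library. There were 24 libraries in 8 groups of 3. Lentivirus had brought a short hairpin RNA (shRNA) into all cells, delivered at a multiplicity of infection of 10, and the cells were kept as stable clones under puromycin, so the control cells share the transduction and the drug. The first set was cultured with fetal bovine serum (FBS), which contains androgens, and held shSIRT1 cells, with an shRNA against SIRT1, and NTC cells, with a non-targeting shRNA. The second set held a SIRT1 knockdown named 10 and NTC cells. These spent 48 h in FBS medium, then 24 h with charcoal-stripped serum (CSS), from which androgens have been removed. They then received 24 h of 1 nM dihydrotestosterone (DHT, an androgen) together with 10 µM enzalutamide, an antiandrogen drug, or of 1 nM DHT alone, or of vehicle. Whether 10 and shSIRT1 share a hairpin or a clone is not in the labels, nor is it stated that replicates came from separate cultures. A knockdown therefore cannot be told apart from a difference between clones, and p-values measure the spread between these libraries, which may be technical.

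Androgens set much of the gene expression of luminal prostate cells, and several genes used to detect prostate tissue respond to them. The 10 genes fall into different classes. FOLH1 encodes prostate-specific membrane antigen, a surface glutamate carboxypeptidase used for positron emission tomography and radioligand therapy. STEAP1, STEAP2 and STEAP4 are membrane proteins of the six-transmembrane epithelial antigen family, of which STEAP2 and STEAP4 are metalloreductases. TMEFF2 is a transmembrane protein with follistatin-like and EGF-like domains. TRPM8 and TRPV6 are cation channels, TRPM8 opened by cold and menthol and TRPV6 selective for calcium. SLC45A3, or prostein, is a prostate-restricted membrane transporter family member and a pathology marker. ACPP, now named ACP3, encodes prostatic acid phosphatase, a secreted enzyme once used as a serum marker. AMACR is a peroxisomal and mitochondrial racemase of branched-chain fatty acids and bile acid intermediates, and is stained in biopsies to recognise cancer.

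Promoter windows, running from 250 bases before to 50 bases after an annotated start, were available in RefSeq (GRCh38.p14) for 9 of the 10 genes, ACPP being matched under its current symbol and FOLH1 having no entry. They are shown for SLC45A3 and TRPM8, the pair that responded most to DHT below. Capitals mark matches on either strand to the TATA box motif TATAAA or the forkhead motif TGTTTAC. The SLC45A3 window is at chr1:205680460-205680759 on the minus strand and the first of 6 TRPM8 windows at chr2:233917123-233917422 on the plus strand.
SLC45A3: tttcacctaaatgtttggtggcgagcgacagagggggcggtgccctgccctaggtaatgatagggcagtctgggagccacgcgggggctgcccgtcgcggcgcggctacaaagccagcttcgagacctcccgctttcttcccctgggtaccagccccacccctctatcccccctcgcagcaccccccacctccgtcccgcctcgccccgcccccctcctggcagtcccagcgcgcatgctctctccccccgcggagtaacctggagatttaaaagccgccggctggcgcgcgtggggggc
TRPM8: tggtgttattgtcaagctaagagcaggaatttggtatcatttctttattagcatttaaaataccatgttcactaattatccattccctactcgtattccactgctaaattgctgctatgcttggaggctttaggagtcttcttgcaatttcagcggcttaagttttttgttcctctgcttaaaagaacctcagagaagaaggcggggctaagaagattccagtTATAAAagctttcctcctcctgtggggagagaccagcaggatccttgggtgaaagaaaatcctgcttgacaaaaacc
The SLC45A3 window is 69.0% G and C with 26 CpG dinucleotides, and the TRPM8 window 41.0% with 3, against a median of 58.7% G and C over all 35116 windows. The TRPM8 window holds TATAAA 27 bases before the start, a motif found in 11.5% of all windows. The forkhead motif TGTTTAC, searched on both strands, was in the second of 2 STEAP2 windows and in 3.42% of all windows. That STEAP2 window also held TATAAA, 44 bases before its start. Apart from it and the first TRPM8 window, no window of the 9 genes held either motif. The matches are a description of these letters only.

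Total counts per library were 11894009 to 14196160 in FBS and 25236335 to 35108290 in CSS. The sets differ in the form of their sample labels and in RSEM's length correction, and their levels are given side by side with no test between them. Genes were tested with edgeR's quasi-likelihood F test on RSEM expected counts, which are the estimated reads of a gene. Calls were made at an adjusted p under 0.05 (Benjamini-Hochberg, over every gene tested), and fold changes have the knockdown, DHT or enzalutamide group on top. A replicate block is a fit in which libraries with the same replicate number share a term. In bulk RNA, fewer cells that express a gene and less of its RNA per cell cannot be told apart. Separation of 2 groups of 3 libraries was common, in counts scaled to a fixed library total. For the knockdown, groups did not overlap in 22.5% of tested genes in FBS and in 47.2% to 48.4% in CSS. For DHT this share was 31.7% in knockdown 10 and 46.6% in NTC cells, and for enzalutamide 31.1% and 47.1%. For DHT with enzalutamide against vehicle it was 9.34% and 9.16%. SIRT1, the targeted gene, had 4.28, 4.65 and 3.56 TPM (transcript abundance scaled to a fixed sum per library) in shSIRT1 cells, against 20.7, 19.0 and 18.7 TPM in NTC cells, in FBS. In CSS it had 5.77 to 9.21 TPM in the 9 knockdown 10 libraries, against 18.6 to 26.3 TPM in the 9 NTC libraries, so the labels and the targeted gene go together in every library. The luminal markers HOXB13, KRT8, KRT18, KLK3 and TMPRSS2 summed to 1190 to 1860 TPM per library, while markers of basal cells or other lines summed to 7.99 to 45.5, mostly VIM, those of fibroblasts to 5.08 to 10.8, those of leukocytes and endothelium to 1.96 to 14.2, and neuroendocrine markers to 1.00 to 2.41 TPM. In the FBS set, libraries 1 and 2 of each group were close to sampling noise of each other (chi-square per gene 1.60 in shSIRT1 and 1.55 in NTC cells, against 8.89 to 9.39 for their pairs with library 3), so FBS calls are given also with these libraries summed, an alternative added after the data were seen.

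On the length-adjusted TPM scale, the 10 genes covered a wide range of levels in the same cells. FOLH1 was the most abundant, with group means of 1072 to 1515 TPM, and it ranked 94 of 23207 genes by mean level in CSS and 118 in FBS. STEAP1 followed with group means of 465 to 666 TPM and STEAP2 with 318 to 454 TPM, and the ranges of these neighbours overlapped in knockdown 10 cells with DHT and with DHT and enzalutamide, but not in the other 6 groups. The genes of these reductase-family proteins lie next to each other on chromosome 7, with no annotated gene between them. TMEFF2 had group means of 142 to 233 TPM. The other members were lower: in CSS, AMACR averaged 75.2 ± 16.3 TPM, ACPP 49.4 ± 7.05, SLC45A3 31.4 ± 16.6, TRPV6 16.1 ± 2.18 and TRPM8 0.546 ± 0.658 TPM (SD over 18 libraries). In FBS the order differed, with SLC45A3 at 131 ± 16.6 TPM above AMACR at 54.6 ± 5.24, ACPP at 18.8 ± 5.21, TRPV6 at 15 ± 2.14 and TRPM8 at 5.99 ± 2.61 TPM (SD over 6 libraries). In FBS, the ranges of TMEFF2 and SLC45A3 overlapped in NTC cells and not in shSIRT1 cells, and those of ACPP and TRPV6 overlapped in shSIRT1 cells and not in NTC cells. In CSS the order of ACPP and SLC45A3 depended on treatment: in NTC cells SLC45A3 was the higher with DHT in every library, and ACPP the higher with vehicle. The 10 genes together held 0.320% to 0.468% of all counts in the group means.

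**Figure D1:**
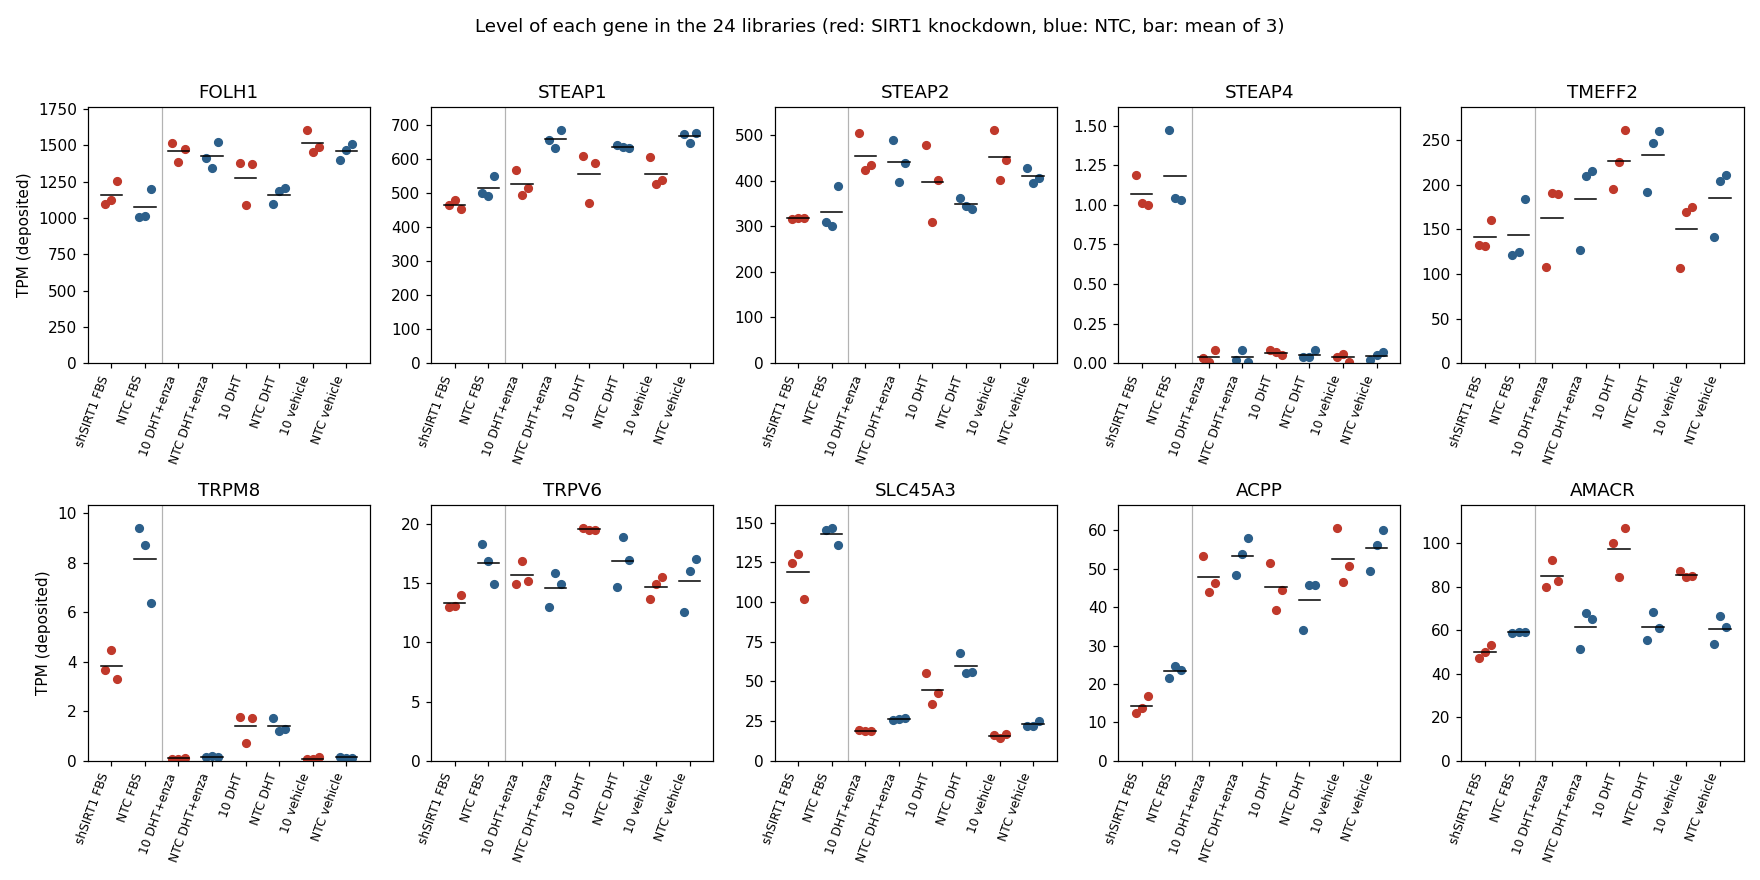
Deposited TPM of each of the 10 genes in all 24 libraries, by group; points are libraries 1 to 3 from left to right, bars are means, and the grey line separates the FBS set from the CSS set. TRPM8 and SLC45A3 stand high with DHT and in FBS, AMACR is higher in every knockdown 10 library than in any NTC library of the CSS set, and STEAP4 is near 0 throughout CSS.

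STEAP4 was nearly silent in CSS and low in FBS. Its expected counts were 24.2 to 30.5 per library in shSIRT1 cells and 26.0 to 42.5 in NTC cells in FBS. In CSS they were 0.42 to 6 per library, and no group had over 14 counts in all, although these libraries were deeper. The level was 1.07 ± 0.107 TPM in shSIRT1 and 1.18 ± 0.251 TPM in NTC cells in FBS (SD, n = 3 each), and the groups overlapped. It therefore passed the filter on low counts only in FBS, and 9 of the 10 genes were tested in CSS. Its relative STEAP3, a metalloreductase of iron uptake, was expressed in both sets and its changes are given below.

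SLC45A3 was the member with the largest androgen response among the abundant genes. It had 55.3, 35.6 and 42.4 TPM in knockdown 10 cells with DHT, against 16, 14.6 and 17.0 TPM with vehicle. In NTC cells it had 67.6, 55.1 and 56.2 TPM with DHT, against 22.2, 22.0 and 24.8 TPM with vehicle. All DHT libraries were above all vehicle libraries of the same cells. The fitted increase was 2.84-fold in knockdown 10 cells (log2 fold change 1.50 ± 0.11 SE, edgeR quasi-likelihood adjusted p = 5.35e-08) and 2.57-fold in NTC cells (1.36 ± 0.10 SE, adjusted p = 3.36e-08). Enzalutamide added to DHT brought SLC45A3 to 19.5, 18.6 and 19.0 TPM in knockdown 10 cells and to 25.5, 26.1 and 26.8 TPM in NTC cells. That was 2.37-fold and 2.28-fold lower than DHT alone (edgeR adjusted p = 2.07e-07 and 9.21e-08). SLC45A3 with DHT and enzalutamide was above every vehicle library of the same cells, and the differences from vehicle were 0.26 (95% interval 0.03 to 0.49) in knockdown 10 cells and 0.17 (-0.05 to 0.40) in NTC cells on the log2 scale. Neither passed the adjusted test (edgeR adjusted p = 1 in both).

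TRPM8 showed the largest fold response of the 10 genes, from a level near 0. Its expected counts were 142, 75.5 and 159 in knockdown 10 cells with DHT, against 7.07, 7.01 and 14 with vehicle. In NTC cells they were 192, 117 and 123 with DHT, against 17.8, 12.5 and 13 with vehicle. Groups did not overlap, and library 2 of the knockdown 10 cells was the lowest with DHT. The fitted increases were 15.4-fold in knockdown 10 cells (log2 fold change 3.95, 95% interval 3.22 to 4.67, edgeR adjusted p = 3.76e-07) and 9.92-fold in NTC cells (3.31, 2.63 to 3.99, adjusted p = 4.26e-07). With enzalutamide the counts were 8.01, 6 and 13 in knockdown 10 cells and 17, 18 and 18 in NTC cells, overlapping the vehicle counts of the same cells. TRPM8 was 14.9-fold lower than with DHT alone in knockdown 10 cells and 8.71-fold lower in NTC cells (edgeR adjusted p = 3.29e-07 and 4.70e-07). In the 6 libraries with DHT alone it stayed at 1.76 TPM or less, against 3.31 to 9.40 TPM in the FBS libraries. The size of these changes depends on the scale: limma gave DHT changes of 1.64 in knockdown 10 and 1.56 in NTC cells on log2(TPM + 0.5), and of 2.91 in knockdown 10 and 2.63 in NTC cells on log2(TPM + 0.1). For enzalutamide it gave -1.63 in knockdown 10 and -1.51 in NTC cells on log2(TPM + 0.5), and -2.88 in knockdown 10 and -2.51 in NTC cells on log2(TPM + 0.1). A pseudocount understates the change of a gene at so low a level. The vehicle levels rest on at most 17.8 expected counts per library.

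Some members fell with DHT. FOLH1 had 1375, 1088 and 1371 TPM in knockdown 10 cells with DHT, against 1602, 1453 and 1490 TPM with vehicle. In NTC cells it had 1094, 1185 and 1202 TPM with DHT, against 1397, 1469 and 1508 TPM with vehicle. The DHT libraries lay below the vehicle libraries in both cells. The decreases were 1.17-fold in knockdown 10 cells (log2 fold change -0.22 ± 0.06 SE, edgeR adjusted p = 0.0130) and 1.27-fold in NTC cells (-0.35 ± 0.06 SE, adjusted p = 0.00031). The call in knockdown 10 cells was lost without their vehicle library 1 (-0.19, edgeR adjusted p = 0.0574), in the fit of only the 2 groups (-0.25, adjusted p = 0.0912) and in that of all 24 libraries (-0.22, adjusted p = 0.0645). With enzalutamide and DHT FOLH1 had 1512, 1386 and 1474 TPM in knockdown 10 cells and 1413, 1345 and 1524 TPM in NTC cells. It was 1.24-fold higher than with DHT alone in NTC cells (edgeR adjusted p = 0.000945), and in knockdown 10 cells the difference was 0.16 on the log2 scale (95% interval 0.04 to 0.29, edgeR adjusted p = 0.0656, or 0.0135 under the block). This difference passed without DHT library 3 (0.21, adjusted p = 0.0477) or library 2 with enzalutamide (0.23, adjusted p = 0.0260). It also passed in DESeq2 and with the filter of 1 CPM in 3 libraries, so in 5 of 15 alternatives with the block.

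ACPP had 51.5, 39.4 and 44.5 TPM in knockdown 10 cells with DHT, against 60.6, 46.5 and 50.6 TPM with vehicle, and these groups overlapped. In NTC cells it had 34.0, 45.9 and 45.7 TPM with DHT, against 49.4, 56.3 and 60.2 TPM with vehicle, with no overlap. The change was -0.45 ± 0.13 (SE) on the log2 scale in NTC cells (edgeR adjusted p = 0.0117) and did not pass in knockdown 10 cells (-0.19, 95% interval -0.46 to 0.07, edgeR adjusted p = 0.313). The NTC call was lost without vehicle library 3 (-0.39, edgeR adjusted p = 0.0549) and without DHT library 1 (-0.33, adjusted p = 0.0773). With enzalutamide and DHT, ACPP was 53.3, 43.9 and 46.2 TPM in knockdown 10 cells and 48.5, 53.8 and 58.0 TPM in NTC cells. That was 1.31-fold higher than with DHT alone in NTC cells (log2 0.39 ± 0.13 SE, edgeR adjusted p = 0.0274) and 0.05 on the log2 scale in knockdown 10 cells (-0.22 to 0.32, edgeR adjusted p = 0.837). The NTC call was lost without DHT library 1 (0.27, edgeR adjusted p = 0.153), without library 2 with enzalutamide (0.36, adjusted p = 0.0834) and without library 3 with enzalutamide (0.34, adjusted p = 0.101), and in limma (0.36 at both pseudocounts, adjusted p = 0.0561 and 0.0547).

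The calcium channel TRPV6 rose with DHT in knockdown 10 cells. It had 19.6, 19.5 and 19.4 TPM with DHT, against 13.7, 15 and 15.5 TPM with vehicle, a 1.36-fold increase (log2 0.44 ± 0.10 SE, edgeR adjusted p = 0.00271). In NTC cells it had 14.7, 18.9 and 17.0 TPM with DHT, against 12.6, 16 and 17.1 TPM with vehicle, and the groups overlapped (0.13, 95% interval -0.07 to 0.33, edgeR adjusted p = 0.329). With enzalutamide and DHT, TRPV6 had 14.9, 16.9 and 15.1 TPM in knockdown 10 cells, 1.28-fold lower than with DHT alone (edgeR adjusted p = 0.0129). That call was lost without DHT library 2 (-0.28, adjusted p = 0.0509) and without library 3 with enzalutamide (-0.31, adjusted p = 0.0670) in edgeR, and in limma at both pseudocounts (-0.31 and -0.32, adjusted p = 0.0636 and 0.0626). In NTC cells the change with enzalutamide was -0.20 (-0.40 to 0.0032; edgeR adjusted p = 0.132, or 0.0179 with the replicate block). The test of the difference between the cells' DHT responses gave 0.31 for TRPV6 (95% interval 0.03 to 0.60, unadjusted p = 0.0337, adjusted p = 0.391 in edgeR).

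STEAP1 showed no call with DHT or with enzalutamide, with log2 changes of 0.02 (-0.13 to 0.17) in knockdown 10 cells and -0.09 (-0.24 to 0.06) in NTC cells for DHT. Its neighbour STEAP2 had 477, 309 and 402 TPM in knockdown 10 cells with DHT, against 510, 402 and 446 TPM with vehicle. In NTC cells STEAP2 had 361, 344 and 338 TPM with DHT, against 428, 395 and 406 TPM with vehicle, below every vehicle library. The NTC change was -0.28 ± 0.12 (SE, edgeR adjusted p = 0.0918, or 0.000208 with the replicate block). With enzalutamide STEAP2 rose 1.30-fold over DHT in NTC cells, to 489, 397 and 439 TPM (edgeR adjusted p = 0.0233). That call was lost without DHT library 2 (0.35, adjusted p = 0.0726), DHT library 3 (0.36, adjusted p = 0.0732) or library 1 with enzalutamide (0.28, adjusted p = 0.125) in edgeR, and in limma (0.34 at both pseudocounts, adjusted p = 0.0583 and 0.0570). AMACR did not pass for DHT, with changes of 0.21 (0.03 to 0.38, edgeR adjusted p = 0.0849) in knockdown 10 cells and 0.01 in NTC cells (95% interval -0.17 to 0.19, edgeR adjusted p = 0.938). For enzalutamide in knockdown 10 cells, AMACR differed by -0.23 (edgeR adjusted p = 0.0631, or 0.0111 with the block) and STEAP2 by 0.15 (adjusted p = 0.417, or 0.0248 with the block).

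TMEFF2 carried a replicate pattern. It had 195, 225 and 261 TPM in knockdown 10 cells with DHT, against 107, 170 and 175 TPM with vehicle. In NTC cells it had 192, 247 and 260 TPM with DHT, against 142, 205 and 211 TPM with vehicle. The library numbered 1 was the lowest of its group in all 6 CSS groups. Such an order was not particular to TMEFF2. In TPM, library 1 was the lowest in 5 of the 6 groups for TRPV6. Library 2 was the lowest in 5 of the 6 for STEAP1, STEAP2 and SLC45A3. Without the block, the DHT changes were 0.63 ± 0.23 (SE) in knockdown 10 cells (edgeR adjusted p = 0.0548) and 0.31 ± 0.22 in NTC cells (adjusted p = 0.326). The knockdown 10 change passed in 4 of 15 alternatives. These were without DHT library 1 (0.74, edgeR adjusted p = 0.0467), with no filter, in the fit of all 24 libraries and with the block (0.64, edgeR adjusted p = 1.27e-06). With the replicate number as a block the NTC change was 0.32 (edgeR adjusted p = 0.00128). The change with enzalutamide, also with the block, was -0.54 in knockdown 10 cells (edgeR adjusted p = 1.07e-05) and -0.36 in NTC cells (adjusted p = 0.000471), where without it the adjusted p was 0.114 and 0.295.

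In all, 4 of the 9 tested genes passed for DHT in knockdown 10 cells, against 22.2% of all tested genes, with 3 higher (against 13.3%) and 1 lower (8.92%). In NTC cells 4 of 9 passed, against 29.9%, with 2 higher (17.4%) and 2 lower (12.5%). For enzalutamide with DHT against DHT alone, 3 of 9 passed in knockdown 10 cells against 20.3% of all genes, with 0 higher (8.08%) and 3 lower (12.2%). In NTC cells 5 of 9 passed against 29.2%, with 3 higher (12.6%) and 2 lower (16.6%). With the replicate block, 7 of 9 passed for enzalutamide in knockdown 10 cells, against 31% of all genes, with 2 higher (13.4%) and 5 lower (17.6%). For DHT with enzalutamide against vehicle, 0 of the 9 genes passed by edgeR in either cell, where 0.00687% of all tested genes passed in knockdown 10 cells and 0% in NTC cells. At an unadjusted p under 0.05 there was 1 member in knockdown 10 cells and 0 in NTC cells, and DESeq2 called 0 in both. DHT and enzalutamide comparisons share the DHT libraries, so that opposite signs in them are not separate evidence.

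**Figure D2:**
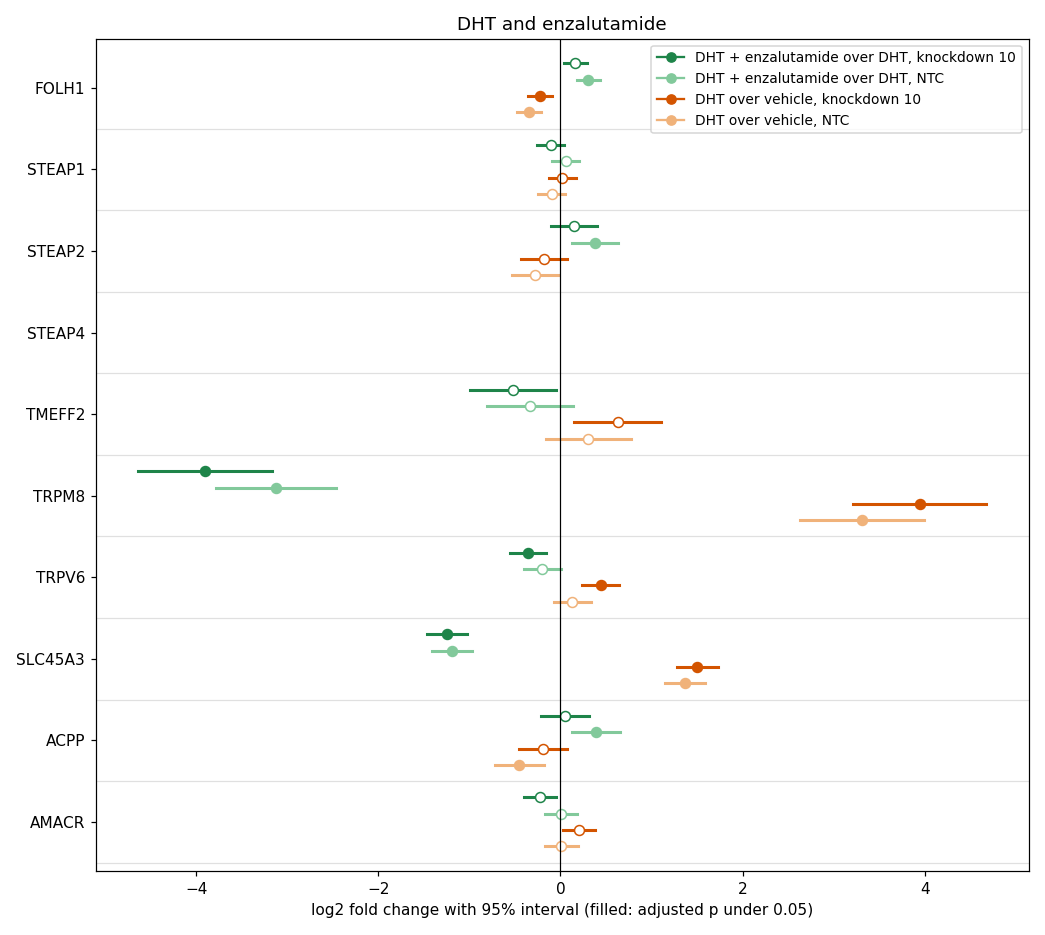
Log2 fold changes with 95% intervals for DHT with enzalutamide over DHT (green) and DHT over vehicle (orange), in knockdown 10 cells (dark) and NTC cells (light); filled points passed an adjusted p of 0.05. TRPM8 and SLC45A3 lie far to the right with DHT and far to the left with enzalutamide, FOLH1 lies to the left with DHT, and STEAP4 was not tested in CSS.

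In CSS, AMACR was higher in knockdown 10 cells under each treatment. AMACR had 79.8, 92.2 and 82.8 TPM in knockdown 10 cells with DHT and enzalutamide, against 51.6, 67.9 and 65.3 TPM in NTC cells. With DHT it had 100.2, 84.6 and 107 TPM in knockdown 10 cells, against 55.6, 68.2 and 60.9 TPM in NTC cells. With vehicle it had 87.2, 84.5 and 84.9 TPM in knockdown 10 cells, against 53.4, 66.6 and 61.4 TPM in NTC cells. Every knockdown 10 library was above every NTC library. The increases were 1.36-fold with DHT and enzalutamide, 1.61-fold with DHT and 1.40-fold with vehicle (log2 0.45, 0.68 and 0.49, each ± 0.08 SE; edgeR adjusted p = 0.000481, 4.45e-06 and 0.000219). Reads of AMACR can be shared with the readthrough gene C1QTNF3-AMACR, which had 0.80 to 5.95 TPM.

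SLC45A3 was lower in knockdown 10 cells under each treatment. From the values above, the group means were 19.0 ± 0.478 TPM in knockdown 10 cells and 26.1 ± 0.646 TPM in NTC cells with DHT and enzalutamide, 44.4 ± 10.0 TPM in knockdown 10 cells and 59.6 ± 6.93 TPM in NTC cells with DHT, and 15.9 ± 1.24 TPM in knockdown 10 cells and 23.0 ± 1.58 TPM in NTC cells with vehicle (SD, n = 3 each). The groups did not overlap with DHT and enzalutamide or with vehicle, and with DHT the highest knockdown 10 library lay between the NTC libraries in TPM. In counts scaled to a fixed library total, the DHT groups did not overlap either, as in 47.2% of all tested genes. The decreases were 1.39-fold, 1.33-fold and 1.47-fold with DHT and enzalutamide, DHT and vehicle (log2 -0.47, -0.41 and -0.55, edgeR adjusted p = 0.00235, 0.0033 and 0.00065). The test of the difference between the cells' DHT responses did not pass for SLC45A3 (0.14 on the log2 scale, 95% interval -0.17 to 0.45, edgeR adjusted p = 0.811).

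STEAP1 was lower in knockdown 10 cells with DHT and enzalutamide, at 568, 493 and 514 TPM, against 655, 633 and 684 TPM in NTC cells. With DHT it had 609, 471 and 588 TPM in knockdown 10 cells, against 641, 636 and 631 TPM in NTC cells. With vehicle it had 606, 526 and 538 TPM in knockdown 10 cells, against 674, 647 and 677 TPM in NTC cells. All knockdown 10 libraries lay below all NTC libraries of the same treatment, where 47.2% to 48.4% of all tested genes separated in either direction. The change was -0.33 ± 0.07 (SE) with DHT and enzalutamide, -0.16 ± 0.07 with DHT and -0.28 ± 0.07 with vehicle on the log2 scale (edgeR adjusted p = 0.00165, 0.0721 and 0.00556, and 0.00492 with DHT under the replicate block). Reads of STEAP1 can be shared with its near copy STEAP1B, which had at most 0.54 TPM.

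With DHT, FOLH1 and TRPV6 were also higher in knockdown 10 cells, in calls that several alternatives did not keep. FOLH1 rose 1.12-fold (log2 0.16, edgeR adjusted p = 0.0404), and its TPM values of 1375, 1088 and 1371 in knockdown 10 cells overlapped the 1094, 1185 and 1202 of NTC cells. The FOLH1 call was lost when any of NTC libraries 1, 2 and 3 (0.14, 0.15 and 0.18, edgeR adjusted p = 0.145, 0.106 and 0.0646) or knockdown 10 libraries 1 and 3 (0.13 and 0.12, adjusted p = 0.121 and 0.170) was left out. It was also lost with no filter (0.16, adjusted p = 0.0575), in the edgeR fits of only the 2 groups (0.18, adjusted p = 0.1) and of all 24 libraries (0.17, adjusted p = 0.105), and in limma (0.13 at both pseudocounts, adjusted p = 0.232 and 0.230). TRPV6 rose 1.19-fold (log2 0.25, edgeR adjusted p = 0.0426), with 19.6, 19.5 and 19.4 TPM in knockdown 10 cells above the 14.7, 18.9 and 17.0 TPM of NTC cells. The TRPV6 call was lost without NTC library 1 or 3 (0.17 and 0.24, edgeR adjusted p = 0.206 and 0.0947) or knockdown 10 library 2 or 3 (0.19 and 0.27, adjusted p = 0.156 and 0.0577), and in limma (0.21 and 0.22, adjusted p = 0.138 and 0.136). With vehicle, FOLH1 differed by 0.04 (95% interval -0.09 to 0.17) and TRPV6 by -0.06 (-0.26 to 0.14) on the log2 scale. Reads of FOLH1 can be shared with its near copy FOLH1B, which had 3.82 to 12.1 TPM.

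The other members did not pass for the knockdown in CSS. STEAP2 differed by 0.21 (95% interval -0.04 to 0.46) with DHT, where the replicate block gave 0.20 (edgeR adjusted p = 0.00256). The STEAP2 difference also passed without knockdown 10 library 2 (0.32, edgeR adjusted p = 0.0454), and STEAP1 with DHT passed without knockdown 10 library 1 (-0.21, adjusted p = 0.0457). TMEFF2 with vehicle had 107, 170 and 175 TPM in knockdown 10 cells, against 142, 205 and 211 TPM in NTC cells. Each numbered pair was lower in the knockdown, and the change was -0.32 (edgeR adjusted p = 0.301), or -0.33 with the replicate block (adjusted p = 0.000942). With DHT and enzalutamide the TMEFF2 change was -0.19 (edgeR adjusted p = 0.559, or 0.0366 with the block). TRPM8 had 0.09, 0.06 and 0.13 TPM in knockdown 10 cells, against 0.14, 0.19 and 0.15 TPM in NTC cells, with DHT and enzalutamide, and the wide interval of the log2 difference ran from -1.72 to 0.13 (edgeR adjusted p = 0.178). With DHT, TRPM8 differed by -0.02 (-0.54 to 0.51).

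The total level of ACPP did not pass for the knockdown in CSS, with log2 changes of -0.30 (95% interval -0.57 to -0.04) with DHT and enzalutamide, 0.04 (-0.23 to 0.31) with DHT and -0.22 (-0.48 to 0.04) with vehicle (edgeR adjusted p = 0.0748, 0.836 and 0.188). The first passed without NTC library 1 (-0.37, edgeR adjusted p = 0.0473) or knockdown 10 library 1 (-0.40, adjusted p = 0.0285), and the last without knockdown 10 library 1 (-0.35, adjusted p = 0.0462). The mix of its 2 annotated transcripts did separate the cells. The files give a gene length weighted by the abundance of its transcripts, and for ACPP this was 2473 to 2549 bases in the 9 knockdown 10 libraries, against 2615 to 2799 bases in the 9 NTC libraries. The groups did not overlap, and the means were 2511 ± 29.8 and 2706 ± 73.0 bases in knockdown 10 and NTC cells (SD, n = 9 each). This was noticed after the values were seen, so it is given as a description without a p-value. Among the 5820 tested genes with several transcripts, 0.842% had lengths that did not overlap between the 9 libraries of each cell, and the other members with several transcripts, FOLH1, STEAP2 and AMACR, overlapped. In FBS the ACPP length was 2681, 2654 and 2616 bases in shSIRT1 cells, against 2898, 2901 and 2639 bases in NTC cells, with overlap. A shorter weighted length at equal counts raises a TPM value, so the ACPP levels in TPM and in counts differ in this ratio between the cells.

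**Figure D3:**
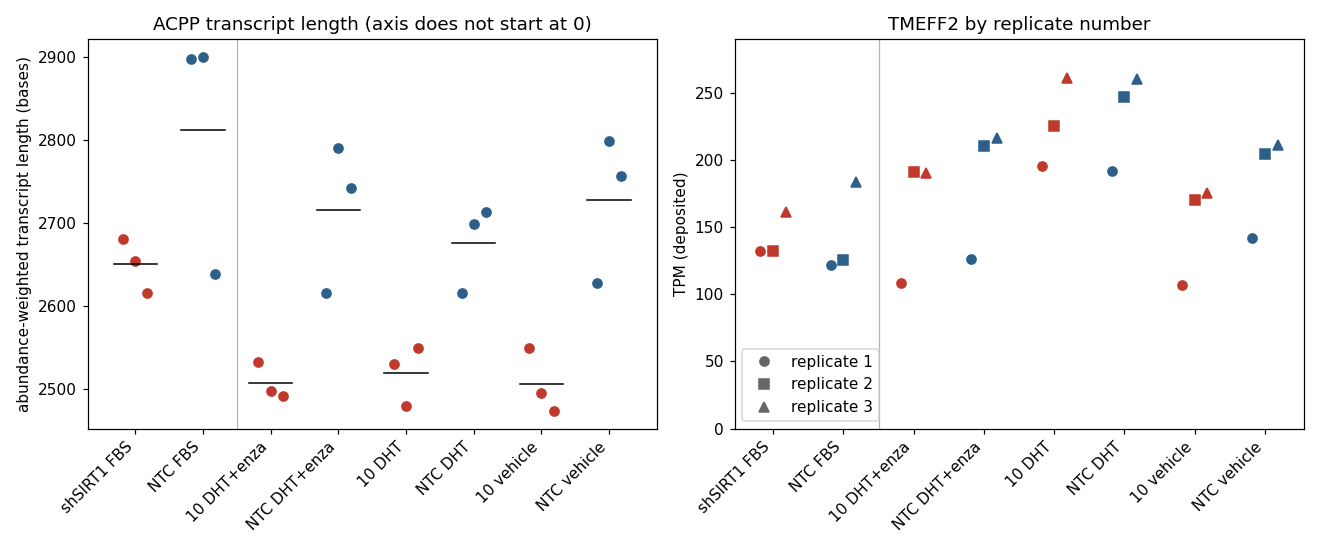
Left: abundance-weighted transcript length of ACPP in bases in each library, with group means as bars, on an axis that does not start at 0. Right: TMEFF2 level in TPM by replicate number. The 9 knockdown 10 libraries lie below the 9 NTC libraries of CSS for ACPP length, and replicate 1 is the lowest point of all 6 CSS groups for TMEFF2.

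Of the 9 tested genes, 3 passed for the knockdown with DHT and enzalutamide against 34.6% of all tested genes, 1 higher (15.4%) and 2 lower (19.2%). With DHT 4 passed against 43%, 3 higher (19.5%) and 1 lower (23.5%). With vehicle 3 passed against 34.6%, 1 higher (15.5%) and 2 lower (19.1%). These shares of the members are near those of all genes. The summed luminal markers were higher in knockdown 10 cells with vehicle and with DHT and enzalutamide, and overlapped with DHT alone. They were 1320 to 1400 TPM in knockdown 10 and 1190 to 1220 in NTC cells with DHT and enzalutamide, 1340 to 1660 in knockdown 10 and 1410 to 1550 in NTC cells with DHT, and 1380 to 1490 in knockdown 10 and 1220 to 1270 in NTC cells with vehicle. The 5 luminal genes did not move together, and KRT8 was the most abundant, at 357 to 732 TPM. For the knockdown, 2 of the 5 rose and 2 fell with DHT and enzalutamide. With DHT and with vehicle, 1 rose and 2 fell in each. The neuroendocrine sum was higher in knockdown 10 cells within each treatment with no overlap, at 1.33 to 2.18 TPM, against 1.00 to 1.37 TPM in NTC cells. Single genes separated in this way in 47.2% to 48.4% of all tested genes. This low sum held 4 genes, of which SYP was the most abundant at 1.00 to 2.27 TPM. Only 1 of the 4 was tested. It passed with vehicle (log2 0.78) and not with DHT and enzalutamide (0.55) or DHT (0.42). The part of these sums in the members' changes was not tested. The median log2 change over the 9 genes was -0.19 with DHT and enzalutamide, 0.04 with DHT and -0.22 with vehicle, against 0.0019, -0.0016 and -0.0045 over all tested genes. The tests of a difference in drug response between the cells found none of the 9 genes for DHT or for enzalutamide (0.199% and 0.35% of all genes passed), with 1 and 0 below an unadjusted p of 0.05 in edgeR and 0 called by any alternative, DESeq2 included. The median of these differences over the 9 genes was 0.20 for DHT, with 9 of 9 above 0, and -0.19 for enzalutamide, with 0 of 9 above 0, both sharing the DHT libraries. The 9 genes were measured in the same libraries, so their common sign is not 9 separate findings. Over all tested genes the medians were 0.00064 and -0.0024.

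TRPM8 and ACPP were lower in shSIRT1 cells than in NTC cells in FBS. Beside them, the summed luminal markers were 1430 to 1440 TPM in shSIRT1 cells and 1730 to 1860 TPM in NTC cells, and the part of this sum was not tested. Of the 5 luminal genes 0 rose and 1 fell, against 0.509% and 2.21% of all tested genes. TRPM8 had 3.67, 4.46 and 3.31 TPM in shSIRT1 cells, against 9.40, 8.72 and 6.38 TPM in NTC cells, and the groups did not overlap. It was 2.13-fold lower (log2 -1.09, 95% interval -1.43 to -0.75, edgeR adjusted p = 0.00781). ACPP had 12.4, 13.8 and 17.0 TPM in shSIRT1 cells, against 21.6, 24.8 and 23.6 TPM in NTC cells, also apart, and was 1.71-fold lower (log2 -0.77, -1.05 to -0.49, edgeR adjusted p = 0.0145). With libraries 1 and 2 of each group summed, the changes were -1.05 for TRPM8 (edgeR adjusted p = 0.109) and -0.71 for ACPP (adjusted p = 0.171), and neither passed. The ACPP call was also lost without NTC library 1 or 2 (-0.81 and -0.70, edgeR adjusted p = 0.0504 and 0.0739) or shSIRT1 library 1 or 2 (-0.67 and -0.73, adjusted p = 0.0641 and 0.0777).

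The other members in FBS did not pass in the fit without a block. AMACR had 47.2, 49.9 and 53.1 TPM in shSIRT1 cells, against 58.8, 59.0 and 59.3 TPM in NTC cells, with no overlap (log2 -0.22, edgeR adjusted p = 0.144, or 0.0180 with the replicate block). SLC45A3 had 125, 130 and 102 TPM in shSIRT1 cells, against 145, 147 and 136 TPM in NTC cells, also with no overlap (-0.26, edgeR adjusted p = 0.114, or 0.00466 with the block). TRPV6 had 13, 13.1 and 14.0 TPM in shSIRT1 cells, against 18.3, 16.8 and 14.9 TPM in NTC cells (-0.31, edgeR adjusted p = 0.133, or 0.0486 with the block). The TRPV6 groups did not overlap either. AMACR passed without shSIRT1 library 3 (-0.29, edgeR adjusted p = 0.0338) and TRPV6 without NTC library 3 (-0.37, adjusted p = 0.0485). FOLH1 differed by 0.12 (95% interval -0.10 to 0.35, edgeR adjusted p = 0.583, or 0.0369 with the block). STEAP1 differed by -0.14 (-0.28 to 0.01), STEAP2 by -0.06 (-0.28 to 0.17), TMEFF2 by -0.01 (-0.38 to 0.37) and STEAP4 by -0.15 (-0.68 to 0.38) on the log2 scale. With libraries 1 and 2 summed, none of these block calls held: the changes were -0.20 for AMACR, -0.28 for SLC45A3, -0.26 for TRPV6 and 0.12 for FOLH1 (edgeR adjusted p = 0.764, 0.603, 0.742 and 0.925). In counts scaled to a fixed library total, groups did not overlap for 6 of the 10 members, against 22.5% of all tested genes in either direction. These were TRPM8, ACPP, AMACR, SLC45A3, TRPV6 and STEAP1, all lower in shSIRT1 cells. Libraries 1 and 2 of each group were close to sampling noise of each other. In all, 2 of 10 members passed against 2.71% of all tested genes, 0 higher (0.509%) and 2 lower (2.21%). With the replicate block 6 of 10 passed against 11.7% of all genes, 1 higher (4.47%) and 5 lower (7.22%). With libraries 1 and 2 summed, 0 of 10 members and 44 of all genes passed.

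**Figure D4:**
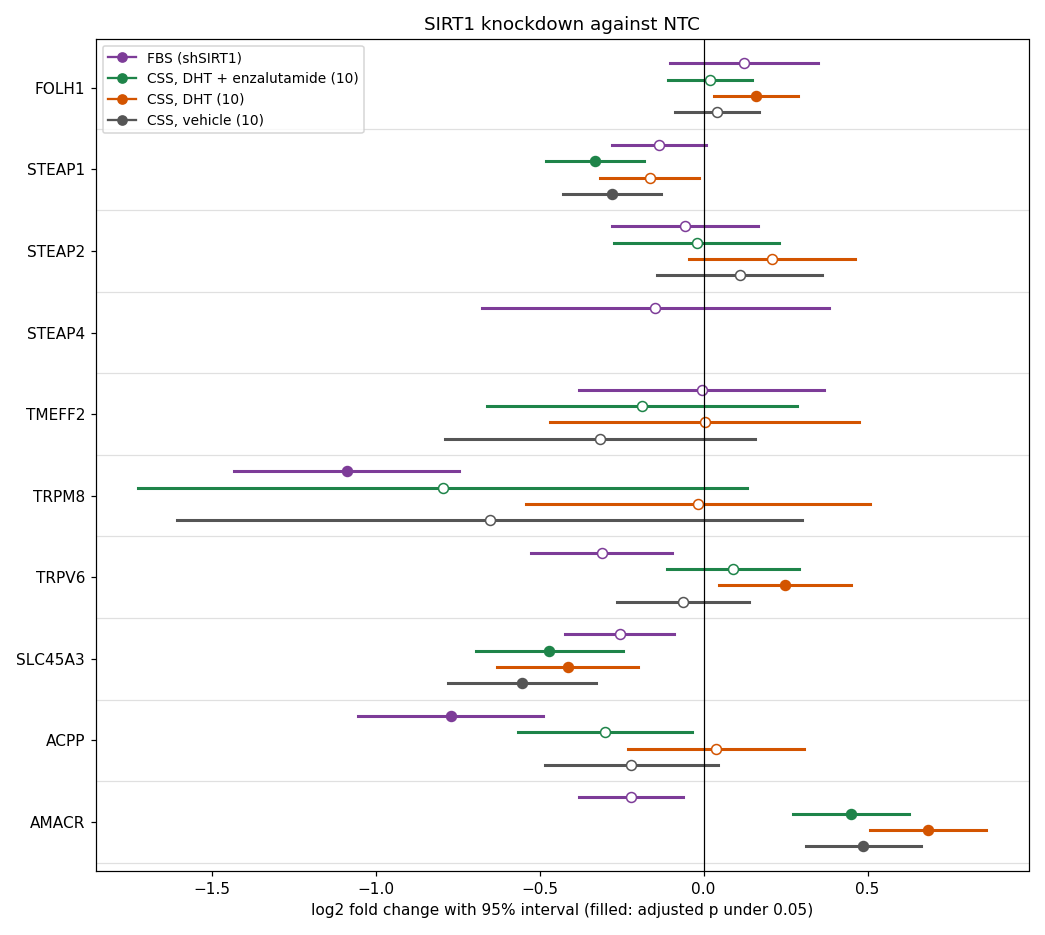
Log2 fold changes of SIRT1 knockdown over NTC cells with 95% intervals, in FBS and in the 3 CSS treatments; filled points passed an adjusted p of 0.05. AMACR lies to the right of 0 in CSS and to the left in FBS, SLC45A3 lies to the left in all 4, and TRPM8 and ACPP passed only in FBS.

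The knockdown difference of AMACR was compared between the sets in a single fit of the 12 libraries with FBS or vehicle, and passed. The log2 change was 0.75 higher in vehicle than in FBS (95% interval 0.54 to 0.96, edgeR adjusted p = 0.000279), with all 3 knockdown 10 libraries above NTC in vehicle and all 3 shSIRT1 libraries below NTC in FBS. For ACPP the difference was 0.59 (0.20 to 0.99, edgeR adjusted p = 0.0446). The ACPP call was lost when any one of NTC FBS libraries 1, 2 and 3, shSIRT1 libraries 1 and 2, NTC vehicle libraries 1 and 2 or knockdown 10 vehicle libraries 1 and 3 was left out, with differences of 0.46 to 0.64 and adjusted p of 0.0544 to 0.137. With FBS libraries 1 and 2 of each group summed, the AMACR difference was 0.72 (edgeR adjusted p = 0.00381) and that of ACPP 0.53 (adjusted p = 0.152). In this test 2 of 10 members passed, both higher, against 13.8% of all tested genes in either direction and 7.47% higher, and with the replicate block 4 of 10 passed, against 25.7%, adding SLC45A3 (-0.25, edgeR adjusted p = 0.0120) and TMEFF2 (-0.30, adjusted p = 0.0112). SLC45A3 also passed without shSIRT1 library 3 (-0.33, adjusted p = 0.0232). The sets differ in serum, in RSEM's length correction, in depth and in the name of the knockdown, which cannot be told apart.

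Across the 18 CSS libraries the members moved in separate ways. Of 36 pairs of members, 4 had a Pearson r of log2 CPM (counts scaled to a fixed library total) beyond 0.8 in size, given here as a description of libraries that share treatments. TRPM8 and SLC45A3 were the closest pair (r = 0.953). FOLH1 ran opposite to both (r = -0.861 with SLC45A3 and -0.827 with TRPM8), and STEAP2 opposite to TMEFF2 (-0.872). STEAP1 and STEAP2, adjacent in the genome, had r = 0.131. The genes most like SLC45A3 were C19orf48 (r = 0.993) and KLK2 (0.992), a kallikrein protease, and those most like TRPM8 were TMTC2 and CHRNA2 (0.981 each). FOLH1 was most like SGTB (0.946) and BMPR2 (0.944), STEAP1 like OLA1 (0.959) and TRA2A (0.939), and STEAP2 like PRKAA1 (0.952) and BROX (0.929). AMACR was most like RALA (0.958) and ZNF706 (0.952), TMEFF2 like SLC2A12 (0.949) and SPATA13 (0.938), TRPV6 like MINK1 (0.922) and AAAS (0.919), and ACPP like ABP1 (0.857) and FLOT2 (0.851).

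Relatives of the members were measured in the same libraries. Beside the counts of these small lists, 15.4% of all tested genes rose and 19.2% fell for the knockdown with DHT and enzalutamide, 19.5% and 23.5% with DHT, and 15.5% and 19.1% with vehicle. STEAP3 had group means of 2.60, 3.68 and 2.53 TPM in knockdown 10 cells with DHT and enzalutamide, DHT and vehicle, against 5.83, 8.81 and 5.88 TPM in NTC cells. It fell by 1.2, 1.25 and 1.24 on the log2 scale (edgeR adjusted p = 1.38e-07, 3.75e-08 and 9.16e-08) and rose with DHT by 0.55 in knockdown 10 and 0.56 in NTC cells (adjusted p = 0.000995 and 0.000192). FOLH1B, a near copy of FOLH1, rose in knockdown 10 cells with DHT and enzalutamide (log2 0.48, edgeR adjusted p = 0.00844) and vehicle (0.35, adjusted p = 0.0390). FOLH1B had only 3.82 to 12.1 TPM, against FOLH1 group means of 1072 to 1515 TPM. The part of shared FOLH1 reads in the level and changes of FOLH1B was not tested. In FBS the STEAP3 change was -0.43 and did not pass. Of 5 tested relatives of FOLH1, which include the transferrin receptor TFRC of the same protein family, 1 rose and 2 fell in knockdown 10 cells with DHT and enzalutamide, 1 rose and 2 fell with DHT, and 2 rose and 0 fell with vehicle. NAALADL2, with group means of 27 to 48.3 TPM, was higher in knockdown 10 than in NTC cells with DHT (log2 0.40, edgeR adjusted p = 0.0044) and vehicle (0.34, adjusted p = 0.0156). TFRC, which takes up transferrin-bound iron, was lower in knockdown 10 than in NTC cells with DHT (-0.59, edgeR adjusted p = 1.03e-05). Of 8 tested genes among other SLC45 transporters and acid phosphatases, 1 rose and 1 fell for the knockdown with DHT and enzalutamide, and 1 rose and 2 fell with DHT and with vehicle. ACP2, a lysosomal acid phosphatase, rose by 0.18, 0.23 and 0.21 with DHT and enzalutamide, DHT and vehicle (edgeR adjusted p = 0.0449, 0.0114 and 0.0232). SLC45A1, a sugar transporter of the SLC45A3 family at 0.20 to 0.79 TPM in group means of CSS, fell with DHT by 1.26 in knockdown 10 and by 1.01 in NTC cells (edgeR adjusted p = 0.0185 and 0.0150). TMEFF1, the paralogue of TMEFF2, had group means of at most 0.07 TPM and was not tested. Of 8 tested genes among the other TRP channels, 0 rose and 1 fell with DHT in knockdown 10 cells (13.3% and 8.92% of all tested genes). In NTC cells 3 rose and 2 fell (17.4% and 12.5%). TRPC1, a member of the canonical TRP channels, fell with DHT in NTC cells (log2 -1.35, edgeR adjusted p = 0.00309) and MCOLN2, a lysosomal channel, rose (0.48, adjusted p = 0.0119). Of 16 peroxisomal partners of AMACR, 3 rose and 3 fell in knockdown 10 cells with DHT and enzalutamide, 5 rose and 3 fell with DHT, and 2 rose and 3 fell with vehicle. For the knockdown, ACOX2, the branched-chain acyl-CoA oxidase, fell with vehicle (log2 -1.39, edgeR adjusted p = 7.54e-06), and SLC27A2, a very long chain acyl-CoA synthetase, fell with DHT (-0.79, adjusted p = 9.60e-07).

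Of 27 tested genes among other prostate targets and secreted markers, 8 rose and 9 fell in knockdown 10 cells with DHT and enzalutamide (15.4% and 19.2% of all tested genes), 11 rose and 6 fell with DHT (19.5% and 23.5%), and 7 rose and 7 fell with vehicle (15.5% and 19.1%). In these knockdown comparisons KLK3, which encodes prostate-specific antigen, fell by 1.61, 1.33 and 2.08 on the log2 scale (edgeR adjusted p = 4.63e-07, 4.52e-07 and 7.09e-08), and PSCA, a surface antigen, rose by 1.10 with DHT (adjusted p = 6.80e-07). In FBS 2 of 29 tested genes fell (2.21% of all tested genes), KLK3 by 1.94 (edgeR adjusted p = 0.000565) and AZGP1, a secreted glycoprotein, by 0.95 (adjusted p = 0.0275). With DHT, 6 of 27 rose in knockdown 10 cells (13.3% of all tested genes), and 8 rose and 1 fell in NTC cells (17.4% and 12.5%). KLK4, a further kallikrein, rose by 3.23 in knockdown 10 and by 1.98 in NTC cells (edgeR adjusted p = 3.71e-12 and 1.60e-09), and it was the one gene of that list whose DHT response differed between the cells (1.25, adjusted p = 0.00209).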

How the data were processed

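RNA of LNCaP cells was sequenced in 24 libraries, made from about 500 ng total RNA with a stranded mRNA kit per the labels' protocols. Per the submitters' processing notes, CASAVA 1.8.2 and RSEM 1.2.31 were used with hg19; the aligner is not given in the sources used here. The deposited files give, per gene symbol, an RSEM expected count, a TPM and transcript lengths, per the file headers. Expected counts were rounded, filtered with filterByExpr by group, scaled by TMM and tested two-sided with edgeR 4.0.16 in R 4.3.3, in fits of the 6 FBS libraries (14329 genes), the 18 CSS libraries (14558 genes, 9 members) and the 12 FBS and vehicle libraries (15345 genes). There were 13 comparisons, with no adjustment across them. Intervals are 95%, with SE from the F statistic. TPM was used for levels and, as log2(TPM + 0.5) or log2(TPM + 0.1), in limma 3.58.1. The fitting step was tested on simulated counts drawn independently for each library. The simulation held no shared replicate numbers and no near-duplicate libraries, so it cannot show how the calls behave with these.

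Alternatives were RLE scaling, DESeq2 1.42.0, no filter, 1 CPM in 3 libraries, limma, a replicate block, other sample sets and leaving out each library. Deviations of same-numbered libraries had correlations of 0.121 to 0.546 in the comparisons between 2 groups, and 0.0913 for pair 3 of DHT in knockdown 10 cells. The highest correlation was with a library of another number for that library 3 and for library 1 of the knockdown in FBS. The same held in NTC cells for library 3 of enzalutamide and of DHT with enzalutamide against vehicle. For every other library of these comparisons, the highest correlation was with the library of the same number. This included libraries 1 and 2 in every CSS comparison. The numbers therefore matched most libraries but were not shown to pair all of them in these comparisons. Depth was 11894009 to 35108290 counts per library.

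Named genes were SIRT1, the 10 members, the called genes with the 2 lowest adjusted p of each other list, relatives above 1 TPM and the 2 genes most correlated with each member. The members and lists were chosen with earlier results of these data known. A further gene of the luminal marker list, beside the 5 named, is not reported here.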

Additional observations from a re-analysis of the deposited data

Results flagged for a closer look

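The knockdown change of AMACR differed between the sets in a test of that difference: the log2 change was 0.75 higher with vehicle in CSS than in FBS (edgeR adjusted p = 0.000279). The same test flagged ACPP, with a difference of 0.59 (edgeR adjusted p = 0.0446), a call that 12 of 21 alternatives did not keep. The share of serum and of the knockdown line in these differences was not tested. Groups of 3 libraries were not tested for outlying libraries.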

How the results depend on the processing

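Of 30 called member results, 20 kept their call in every alternative, 10 lost it in at least 1 and 0 reversed. The replicate block lost 0 calls and added 21. The numbers were not shown to pair all libraries for DHT in knockdown 10 cells, the knockdown in FBS or enzalutamide in NTC cells. Nor were they for DHT with enzalutamide against vehicle in NTC cells. For DHT in knockdown 10 cells, the block called 7 members in place of 4, adding STEAP2, AMACR and TMEFF2. Over all genes 4674 (32.1%) passed there with the block and 3236 (22.2%) without it. The block called 6 members for the knockdown in FBS (2 in the report's fit), 7 for enzalutamide in knockdown 10 cells (3) and 4 for the difference between vehicle and FBS (2). In FBS, summing libraries 1 and 2 called 0 members and using only these called 6. limma called 2 members for the knockdown with DHT (4) and 3 for enzalutamide in NTC cells (5) at both pseudocounts. RLE scaling and the fit of all 24 libraries each called 1 for the difference between vehicle and FBS, as did summing FBS libraries 1 and 2. Over all genes, the knockdown in FBS called 389, with 242 and 239 by limma, 1676 with the block, 876 in the fit of 24 libraries, 44 with libraries 1 and 2 summed and 3426 with these only. The fit of only the compared groups called 1649 for DHT and 1550 for enzalutamide in knockdown 10 cells and 1 for DHT with enzalutamide against vehicle in NTC cells, and the block called 4518 for enzalutamide in knockdown 10 cells. For DHT with enzalutamide against vehicle in knockdown 10 cells, DESeq2 called 6, no filter 2, limma 0 and 2, and the block 6. For the DHT interaction DESeq2 called 156, limma 3 and 2, the block 427, only the groups 7 and all 24 libraries 3. For the enzalutamide interaction they called 256, 16 and 11, 573, 5 and 16. For the difference between vehicle and FBS the block called 3937, and summing FBS libraries 1 and 2 called 1118. Leaving out 1 library at a time called 1 to 3 members for the knockdown in FBS, 3 to 4 for the knockdown with vehicle, 2 to 4 for the knockdown with DHT, 3 to 4 for the knockdown with DHT and enzalutamide, 3 to 4 for DHT in NTC cells, 3 to 5 for DHT in knockdown 10 cells, 4 for enzalutamide in NTC cells, 2 to 4 for enzalutamide in knockdown 10 cells, 0 for DHT with enzalutamide against vehicle in NTC cells, 0 for the same in knockdown 10 cells, 0 for the DHT interaction, 0 for the enzalutamide interaction and 1 to 3 for the difference between vehicle and FBS. Leaving out 1 library at a time called 103 to 926 genes for the knockdown in FBS, 4025 to 4622 for the knockdown with vehicle, 5260 to 6379 for the knockdown with DHT, 3895 to 4463 for the knockdown with DHT and enzalutamide, 3088 to 3974 for DHT in NTC cells, 2268 to 3744 for DHT in knockdown 10 cells, 3064 to 3875 for enzalutamide in NTC cells, 2069 to 3622 for enzalutamide in knockdown 10 cells, 0 for DHT with enzalutamide against vehicle in NTC cells, 0 to 2 for the same in knockdown 10 cells, 5 to 90 for the DHT interaction, 16 to 176 for the enzalutamide interaction and 1452 to 2426 for the difference between vehicle and FBS. The cause of these shifts was not tested. STEAP4 in CSS and TRPM8 with vehicle are limited by their few counts.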
